A study of Mus musculus with 5 samples.

Results

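The interleukin 1 family genes Il1a, Il1rn and Il18 were followed through lipopolysaccharide (LPS) exposure of mouse macrophages. They were chosen by gene symbol, and each was measured by 1 probe, so they make up 3 of 8637 genes and 3 of 19828 probes. The probes were number 10204 for Il1a (Entrez gene 16175), 10501 for Il1rn (16181) and 11665 for Il18 (16173), and all 3 had a value on each of the 5 arrays. Macrophages had been grown from bone marrow of C3H/ARC mice with human CSF-1, which drives their differentiation, and were unstimulated (0 h) or had received S. minnesota LPS at 10 µg per ml for 0.5, 2, 7 or 21 h. Each time was 1 two-colour array, on which the other channel held RNA of whole C57BL6/J embryos of day 17.5. The labels do not say how many animals or cultures stood behind an array. There are no replicates, so values carry no p, and their precision is limited by having 1 array a time. The cells were differentiated in culture, and the embryos were of another strain than the macrophages.

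The products of these genes act on related receptors of the interleukin 1 receptor family, which signal through the adaptor Myd88, Irak kinases and Traf6 to NF-kappaB and MAP kinases. Il1a encodes interleukin 1 alpha, an inflammatory ligand whose precursor is already active and can be released from damaged cells. Il1rn encodes the interleukin 1 receptor antagonist, which occupies the same receptor without starting a signal. Il18 encodes interleukin 18, a ligand that is held as an inactive precursor until caspase-1 cleaves it, and that drives interferon gamma production by T and NK cells. LPS, part of the outer membrane of Gram-negative bacteria, is sensed by macrophages through the receptor Tlr4, which uses the same adaptor.

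The bases before the RefSeq start of each gene are shown because Il1a and Il1rn shared a high level at 7 h and 21 h, while Il18 was high at 7 h alone. The windows of 250 bases are those of GRCm38.p6, written 5′ to 3′ on the strand of the gene, at chr2:129309973-129310222 (minus strand) for Il1a, chr2:24336610-24336859 (plus strand) for Il1rn and chr9:50554450-50554699 (plus strand) for Il18. Capitals mark matches to TGANTCA, a site of AP-1 factors, to GAGGAA, a core of many ETS factor sites, and to TATAAA, the TATA box.
Il1a: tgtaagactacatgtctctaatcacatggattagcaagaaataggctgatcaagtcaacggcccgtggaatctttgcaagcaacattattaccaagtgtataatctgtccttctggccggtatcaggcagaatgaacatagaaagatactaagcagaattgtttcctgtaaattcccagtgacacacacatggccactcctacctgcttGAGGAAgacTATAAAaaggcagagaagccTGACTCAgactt
Il1rn: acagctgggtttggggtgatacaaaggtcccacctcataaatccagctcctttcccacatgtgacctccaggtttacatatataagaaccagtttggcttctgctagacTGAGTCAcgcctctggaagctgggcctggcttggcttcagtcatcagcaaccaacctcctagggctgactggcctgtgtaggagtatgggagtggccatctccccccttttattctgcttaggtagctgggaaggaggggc
Il18: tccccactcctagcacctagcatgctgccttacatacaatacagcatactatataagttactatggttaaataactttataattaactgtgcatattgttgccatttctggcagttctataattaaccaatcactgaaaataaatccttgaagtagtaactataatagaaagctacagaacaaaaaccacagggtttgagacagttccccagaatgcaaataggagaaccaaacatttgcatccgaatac
The windows of Il1a and Il1rn each held 1 match to TGANTCA, which 6.75% of 32851 promoter windows of this length hold. The match lay 12 to 6 bases before the start of Il1a and 141 to 135 bases before that of Il1rn. Il1a also held GAGGAA (41 to 36 bases before the start, a motif in 23.3% of windows) and TATAAA (32 to 27 bases, on the strand of the gene only, in 7.59%). The other motifs were searched on both strands, and no 2 of these matches overlap. No match to the NF-kappaB motif (in 3.90% of windows) was found in the printed windows, and the Il18 window held no match to any of the 4 motifs. Il1rn has other, downstream starts in the table, whose 2 windows are not printed and held no match either. A match is a description of letters, and the arrays did not measure binding.

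Values are log2 ratios, likely of macrophage over embryo, minus the median of the array. The labels do not give the direction, and it was read from marker genes. The 8 macrophage markers measured, of 25 listed, had a median log2 ratio of 2.19, 2.54, 2.39, 2.10 and 1.91 at 0, 0.5, 2, 7 and 21 h, and the 15 whole-embryo markers one between -1.78 and -1.52. With the other direction, higher and lower would exchange throughout. The log base is not given either. Base 10 was inferred from the spread of the values, and if it was 2 the folds were smaller, as stated below. Arrays correlated with each other at r between 0.635 and 0.882 over 18296 probes. Of the lists of other cell types, neutrophil markers (6 genes) had a median change from 0 h of 0.04, 0.10, 0.16 and -0.51 in order of time, and B cell markers (4 genes) one of 0.68, 0.76, 0.64 and 0.39. The medians of T and NK cell (2 genes) and dendritic cell markers (2 genes) lay between -0.01 and 0.46. Those of keratinocyte markers (5 genes) lay between 0.19 and 0.48 and those of stromal markers (7 genes) between -0.61 and -0.15. The part of these cells in the values of Il1a, Il1rn and Il18 was not tested.

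The 0.5 h and 2 h arrays held many high ratios, and these were counted along the probe numbers. In 94 of 207 runs of 96 consecutive probe numbers at least 10% of probes stood 2-fold or more above 0 h on one of these arrays, and these are called affected runs. The probes of Il1a and Il1rn lie in affected runs and that of Il18 does not. The 10% limit is below the 12.4% of all genes at least 2-fold higher at 2 h. Whether high ratios followed the probe number was not tested, since affected runs are defined by those ratios. At 2 h the shares among the other probes of the runs of Il1a, Il1rn and Il18 were 14.9%, 11.4% and 8.05%. The run of Il1rn thus passed the limit, and that of Il18 missed it, by a small margin. The other probes of the 3 members' own runs are described below.

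Il1a had log2 ratios of 0.12, 0.98, 3.72, 5.32 and 5.54 at 0, 0.5, 2, 7 and 21 h. It was close to the array median in unstimulated cells, and each later array stood above the one before it. In bulk RNA, more expressing cells and more RNA per cell cannot be told apart. Against 0 h, Il1a was 1.82-fold higher at 0.5 h, 12.1-fold at 2 h, 36.9-fold at 7 h and 42.9-fold at 21 h. Read as base 2, these would be 1.20-fold, 2.12-fold, 2.96-fold and 3.10-fold. The change of Il1a ranked 627 among the 8637 genes at 0.5 h, 140 at 2 h, 2 at 7 h and 1 at 21 h. At 7 h the chemokine gene Cxcl10 stood above it (42.8-fold), and at 21 h the next gene was the complement factor gene Cfb at 18.7-fold.

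The spread between probes of one gene gives a technical scale for single values. It compares probes on the same arrays, so it holds no spread between arrays or cultures. Multiples of it are not a measure of significance. Pooled over 3015 genes with several probes, the SD over probes of a change from 0 h was 0.67, 0.97, 0.51 and 0.47 (log2) at 0.5, 2, 7 and 21 h. The changes of Il1a were 1.28, 3.73, 10.1 and 11.5 times that SD in the same order. Between neighbouring times, Il1a at 2 h was 2.74 above 0.5 h (SD over probes 0.69) and at 7 h was 1.60 above 2 h (SD 1.03). At 21 h it was 0.22 above 7 h (SD 0.40), so these 2 levels did not differ beyond that spread.

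Il1rn had log2 ratios of -0.06, 0.73, 1.34, 2.94 and 2.58 in order of time. It too began near the array median, and it was highest at 7 h. Against 0 h it was 1.73-fold higher at 0.5 h, 2.63-fold at 2 h, 7.99-fold at 7 h and 6.23-fold at 21 h, or 1.18-fold, 1.34-fold, 1.87-fold and 1.73-fold if read as base 2. Its change ranked 706, 716, 9 and 13 among 8637 genes. It amounted to 1.17, 1.44, 5.84 and 5.60 times the SD over probes. On that scale the antagonist gene was within 1.5 SD of 0 h on both early arrays and at 5.84 and 5.60 SD on the late ones. Among neighbours in the order of its levels, 21 h lay 0.36 below 7 h (SD 0.40) and 2 h lay 0.60 above 0.5 h (SD 0.69), both inside the spread. Il1rn at 21 h was 1.25 above 2 h (SD 1.01).

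Il18 had log2 ratios of -0.40, -0.21, -0.30, 0.80 and 0.10 in order of time. Only the 7 h array stood out. Against 0 h it was 1.14-fold, 1.07-fold, 2.30-fold and 1.42-fold higher at 0.5, 2, 7 and 21 h, and 1.28-fold at 7 h if read as base 2. The change at 7 h ranked 226 among 8637 genes and was 2.34 times the SD over probes, against 0.278, 0.105 and 1.07 times at 0.5, 2 and 21 h. At 21 h Il18 was 0.70 below 7 h (SD 0.40), rank 327 from the bottom of all genes for this step. The 0, 0.5 and 2 h levels did not differ beyond the spread, and 21 h lay 0.32 above 0.5 h (SD 0.74).

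**Figure D1:**
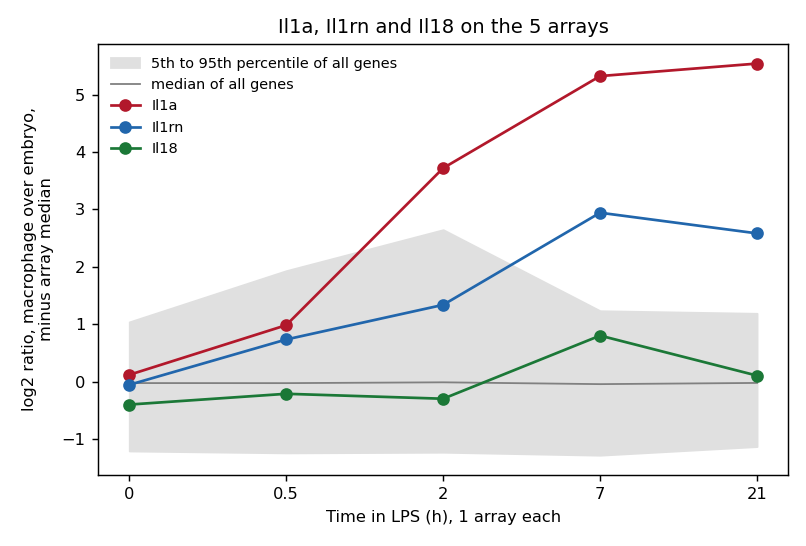
Log2 ratio minus the array median (y axis, likely macrophage over embryo) of Il1a, Il1rn and Il18 on the 5 arrays (x axis, h of LPS, evenly spaced categories, 1 array each), with the median and the 5th to 95th percentile range of 8637 genes in grey. Il1a reaches 5.54 at 21 h, Il1rn is highest at 7 h (2.94), and Il18 stands above 0.5 on the 7 h array only (0.80). The grey range is wider upwards at 0.5 h and 2 h.

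At 0.5 h, 0 of the 3 genes stood at least 2-fold above 0 h, where 5.95% of all genes did. At 2 h Il1a and Il1rn did, with 12.4% of all genes, though Il1rn was at 0.96 (1.94-fold) under quantile normalization. At 7 h all 3 did, with 4.08% of all genes, and at 21 h Il1a and Il1rn, with 3.05%. Without centring Il18 was at 0.98 (1.98-fold) at 7 h, below 2-fold. No member was at least 2-fold lower at any time. The genes were chosen with these changes known, so the counts describe them and no more. The median change over all genes was 0.08, 0.07, -0.00029 and 0.02 in order of time.

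Within their own runs, Il1a and Il1rn were the highest probes on both late arrays, Il1a by far and Il1rn by less than the SD over probes. At 7 h and 21 h Il1a was the highest of 88 probes of its run, at 5.21 and 5.42, against 1.68 and 1.31 for the next probe. On these arrays 3 and 6 of the 87 other probes stood at least 2-fold higher, with 4.08% and 3.05% of all genes. At 2 h Il1a, with a change of 3.60, ranked 4 in the run, where 13 of 87 other probes (14.9%) were at least 2-fold higher and the highest was at 5.96. At 0.5 h its change of 0.87 ranked 11, and 8 of 87 others (9.2%) were at least 2-fold higher. Over all genes the shares were 12.4% at 2 h and 5.95% at 0.5 h. High values of other genes thus stood beside Il1a on the early arrays, but such values were common across these arrays. Their part in the early values of Il1a was not tested.

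Il1rn was the highest of 80 probes of its run at 7 h (3.0, next 2.55) and at 21 h (2.64, next 2.24). On these arrays 11 (13.9%) and 5 of the 79 other probes also passed 2-fold, with 4.08% and 3.05% of all genes. At 2 h its change of 1.39 ranked 3, with 9 of 79 other probes (11.4%) at least 2-fold higher. At 0.5 h its 0.79 ranked 7, with 4 of 79 (5.06%). Over all genes, counted after averaging and not per probe, the early shares were 12.4% and 5.95%. Il18 ranked 49, 38, 11 and 25 of 88 probes in order of time. At 7 h 13 of the 87 other probes in its run (14.9%) were at least 2-fold higher, where 4.08% of all genes were. The highest was at 2.82, so the Il18 change of 1.20 did not stand apart there. With each run centred on its own median, the changes at 7 h were 4.90 for Il1a, 2.73 for Il1rn and 0.92 for Il18. The last is below 2-fold. At 21 h they were 5.15, 2.49 and 0.36.

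**Figure D2:**
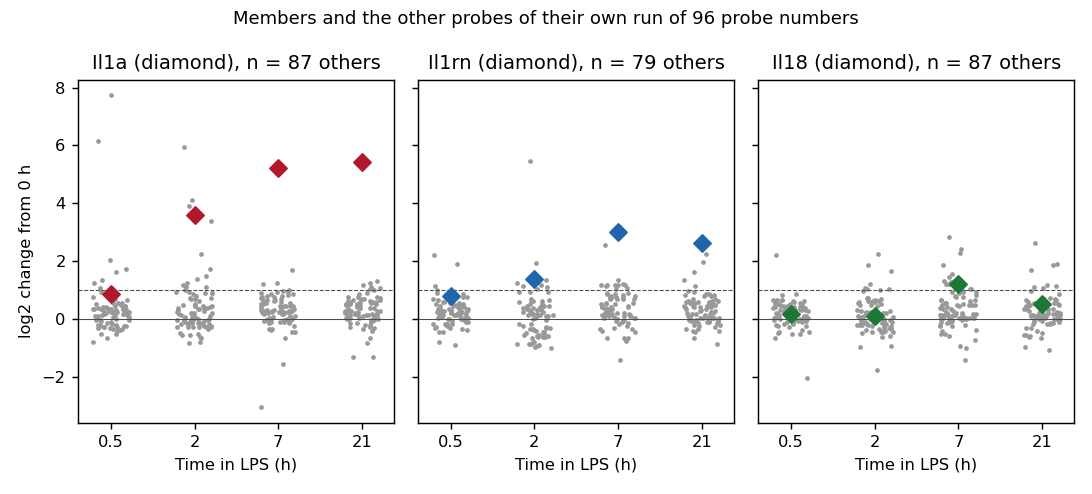
Log2 change from 0 h (y axis) at 0.5, 2, 7 and 21 h (x axis) of Il1a, Il1rn and Il18 (coloured diamonds) and of the other probes in the same run of 96 probe numbers (grey points, 87, 79 and 87 probes measured on all arrays, spread sideways for display). The dashed line marks 2-fold. Il1a (5.21 and 5.42) and Il1rn (3.0 and 2.64) lie above all grey points at 7 h and 21 h, while at 2 h grey points reach 5.96 and 5.47 in their runs.

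The ligand gene and its antagonist gene differed by less than the spread between probes at 0.5 h and by more than it from 2 h on. The change of Il1a minus that of Il1rn was 0.08 at 0.5 h, 2.21 at 2 h, 2.21 at 7 h and 2.78 at 21 h on the log2 scale. The SD of such a difference between 2 single probes was 0.95, 1.37, 0.73 and 0.67. The difference of changes is free of the array's centring, and from 2 h on the fold of Il1a was 4.62, 4.62 and 6.89 times that of Il1rn. Under quantile normalization it was 2.17 times at 2 h (log2 1.12, inside the SD of 1.37) and 14.7 times at 21 h, and read as base 2 it was 1.59, 1.58 and 1.79 times. Il1rn exceeded Il18 by 0.60, 1.29, 1.80 and 2.13 in order of time, beyond the SD at 7 h and 21 h only.

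The 3 genes also differed in how much of the 7 h change the other arrays showed. Over the 352 genes at least 2-fold higher at 7 h, the log2 change at 21 h was a median 65.8% of that at 7 h (quartiles 41.2% and 89.1%). Il1a stood at 104% and Il1rn at 88.0%, both above the median, and Il18 at 42.0%, near the lower quartile. The 352 genes were kept for their 7 h value, so their other arrays stand below it partly by that choice. Il18 is among them through its 7 h array alone, so its low share follows in part from the choice. Of the 352 genes, 60 stood at 21 h at or above their 7 h change, Il1a among them. The change at 2 h was a median 57.3% of that at 7 h, with quartiles of 30.2% and 85.1%. Il1a had reached 69.2% by then, Il1rn 46.5% and Il18 8.46%. In all, 84 of 8637 genes (0.97%) were at least 2-fold higher at 2, 7 and 21 h, Il1a and Il1rn among them. A further 201 (2.33%) were so at 7 h but not at 21 h. Il18 was among these, though its 7 h change was 0.98 without centring.

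Every change shares the 0 h array, so an error of a probe there would enter all its changes. Against the 0.5 h array instead, Il1a was 4.34 higher at 7 h and 4.56 at 21 h, rank 1 of all genes at both times. Il1rn was 2.21 and 1.85 higher (ranks 19 and 29). Il18 was 1.01 higher at 7 h, rank 229, and 0.32 at 21 h.

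The genes with the course nearest to that of each member were found by the root mean square (RMS) difference of the 4 changes from 0 h. This measure is not scaled to the size of a change, so small changes have more genes close to them. Nearest to Il1a were Cxcl10 (RMS difference 1.0), the antiviral genes Rsad2 (1.15) and Ifit1 (1.35), Cfb (1.70) and the interferon-inducible gene Ifi204 (1.81), so 0 genes lay within 0.5. At 21 h Cxcl10, Rsad2 and Ifit1 had changes of 3.50, 3.46 and 3.46, below their 7 h changes of 5.42, 4.04 and 4.07, unlike Il1a. Cfb stood at 1.03 at 2 h and 4.22 at 21 h. All probes of Cxcl10, Rsad2 and Ifit1, and 1 of 2 of Cfb, lie in affected runs, and that of Ifi204 lies outside.

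Nearest to Il1rn were Insig2, a regulator of sterol synthesis (RMS difference 0.40), Mxd1, an antagonist of Myc (0.43), Ifi204 (0.44), the mitochondrial superoxide dismutase gene Sod2 (0.46) and the RNA exosome gene Exosc4 (0.53), and 4 genes lay within 0.5. Their changes at 7 h ranged from 2.19 (Sod2) to 3.44 (Ifi204). The single probe of Insig2 lies in the same affected run as that of Il1rn and was the next highest there at 7 h. Of Mxd1 1 of 2 probes and of Sod2 3 of 4 lie in affected runs, and those of Ifi204 and Exosc4 lie outside. Nearest to Il18 were Kantr (0.06), Stk11ip (0.08), the cathepsin C gene Ctsc (0.09), Rnf13 (0.10) and Fbf1 (0.11), and 1336 genes lay within 0.5, of which 152 were at least 2-fold higher at 7 h. Il18 was 2.30-fold higher at 7 h and 1.42-fold at 21 h, against 2.51-fold and 1.54-fold for Ctsc.

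**Figure D3:**
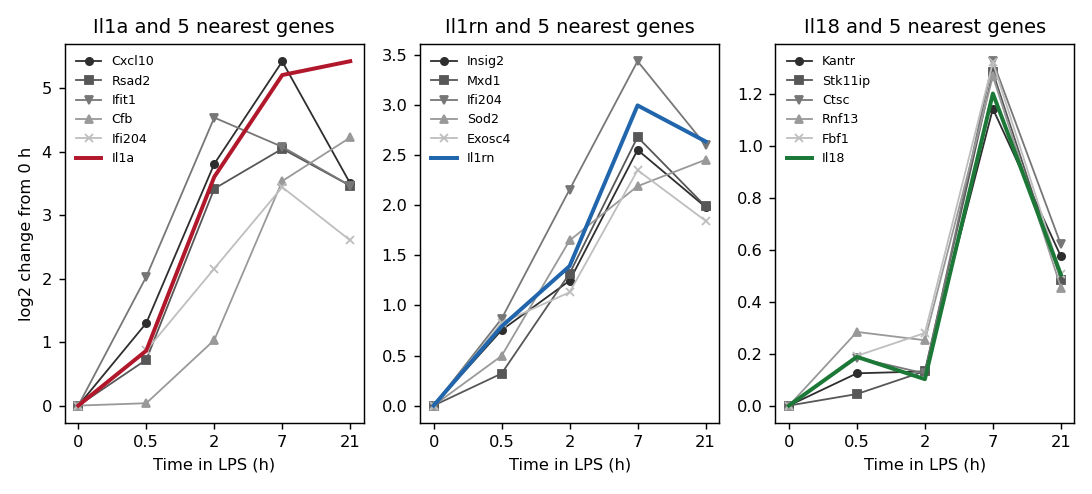
Log2 change from 0 h (y axis, scaled separately in each panel) across the 5 arrays (x axis, h of LPS) for Il1a, Il1rn and Il18 (coloured) and the 5 genes with the smallest RMS difference from each (grey, nearest darkest). Among the genes near Il1a, Cxcl10 is higher at 7 h (5.42) but lower at 21 h (3.50), and the genes near Il18 share its single high array at 7 h.

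Of 103 other genes listed for the interleukin 1 pathway, 35 were measured. At 0.5 h 5 of them (14.3%) were at least 2-fold higher and 1 lower, where 5.95% and 1.01% of all genes were. At 2 h the counts were 7 (20.0%) and 1, against 12.4% and 1.1%. At 7 h they were 7 (20.0%) and 2 (5.71%), against 4.08% and 3.16%, and at 21 h 1 (2.86%) and 1, against 3.05% and 1.45%. The median change of the 35 genes was 0.16, 0.23, 0.24 and 0.08 in order of time. Read as base 2, 1 of the 35 was at least 2-fold higher at 2 h, where 2.0% of all genes were. At 0.5, 7 and 21 h 0 were, with 0.65%, 0.081% and 0.093% of all genes. Against the 0.5 h array instead of 0 h, 1 of the 35 was at least 2-fold higher at 7 h, where 2.72% of all genes were. The high share at 7 h was thus seen against the 0 h array and not against the 0.5 h array. On the latter, 5 of the 35 genes were already at least 2-fold above 0 h. The count of 7 h against 2 h was not made, and the cause of the difference was not tested.

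Of the ligand genes besides the 3 members, Il33, Il1f5 and Il1f8 were measured. Il1f5, also known as Il36rn, encodes the antagonist of the interleukin 36 receptor, and Il1f8 (Il36b) encodes an agonist of it. Il1f5 had changes of -1.06, 0.23, -1.41 and -0.98 in order of time (3 probes, SD over probes 0.65, 0.29, 0.62 and 0.29), so it was lower at 0.5 h and 7 h while Il1rn was higher at 7 h. Il1f8 stood at 0.73, 3.37, -1.20 and -1.01, high on the 2 h array alone, and Il33, an alarmin of barrier tissues, at -0.96, 0.37, -0.22 and -0.44. All 5 probes of these 3 genes lie in affected runs.

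Il18bp, the secreted protein that binds and neutralizes interleukin 18, was the only receptor or decoy gene measured. It had changes of 1.15, 1.67, 1.31 and 1.52 (3 probes, all in affected runs). Its mean was at least 2-fold higher on each later array, but at 0.5 h the median over its probes was 0.74 and below 2-fold. The SD over its probes was 1.02 and 1.44 at 0.5 h and 2 h and 0.41 and 0.69 at 7 h and 21 h, and its lowest probe was at 0.40, 0.11, 1.03 and 1.10 in order of time. With centring, every probe of the binding protein gene was thus at least 2-fold above 0 h on the late arrays. The margin was narrow, with a median over probes of 1.12 and 1.14 at 7 h and 21 h. Without centring late changes were lower (Il18 at 7 h was 0.98 instead of 1.20), and the Il18bp probes were not recounted. On the early arrays its probes lay on both sides of 2-fold.

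Below the receptors 9 genes were measured. Peli1, an E3 ligase that modifies Irak1, had changes of 0.10, 1.55, 1.76 and 1.0. The SD over its 3 probes, 1 of them in an affected run, was 1.21 and 1.18 at 2 h and 7 h. Tab2, an adaptor of the kinase Tak1, had 0.50, 0.48, 1.29 and 0.52 on a probe outside the affected runs. The other 7 (Irak1, Traf6, Tab1, Ikbkb, Ikbkg, Ube2n and Tifa) stayed within 2-fold of 0 h at all times.

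Of 12 genes of processing and release, Casp8, a protease that can also cleave interleukin 1 precursors, stood at 0.77, 0.60, 1.52 and 0.89. Its single probe lies in an affected run. Serpinb9, an inhibitor of granzyme B and caspase-1, stood at -0.42, 2.67, -0.26 and 0.47, high at 2 h alone, on a probe outside the affected runs. Txnip, a thioredoxin inhibitor that binds the inflammasome sensor Nlrp3, stood at -0.34, -1.12, -0.71 and -0.37 (2 probes, 1 in an affected run, SD 0.20 at 2 h). Pycard, the adaptor that recruits caspase-1, had changes of 0.47, 0.26, 0.55 and 0.44, under 2-fold throughout. So did the calpain genes Capn1 and Capn2, whose products cleave the interleukin 1 alpha precursor, with 0.30 and 0.18 at 7 h and 0.13 and 0.01 at 21 h.

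Among NF-kappaB genes, the inhibitor gene Nfkbia, itself a target of the pathway, had changes of 1.35, 0.79, 1.73 and 0.82, and Nfkbib had 0.83, 2.23, 1.27 and 0.56. The 2 probes of Nfkbib, both in affected runs, differed at 2 h, at -0.02 and 4.49. That of Nfkbia lies outside them. Rela stayed between -0.20 and 0.15. Of 7 regulators, Fos had changes of 2.32, -0.30, 0.12 and 0.27, high at 0.5 h alone. Junb had 1.92, 1.94, 1.19 and 0.46, and Irf1, a transcription factor of the interferon response, 1.03, 1.71, 0.84 and 0.43. These 3 genes were highest on an early array. The single probes of Fos and Junb lie in affected runs and that of Irf1 outside them. Cebpd, Socs1, Jun and Ifngr1 stayed within 2-fold.

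**Figure D4:**
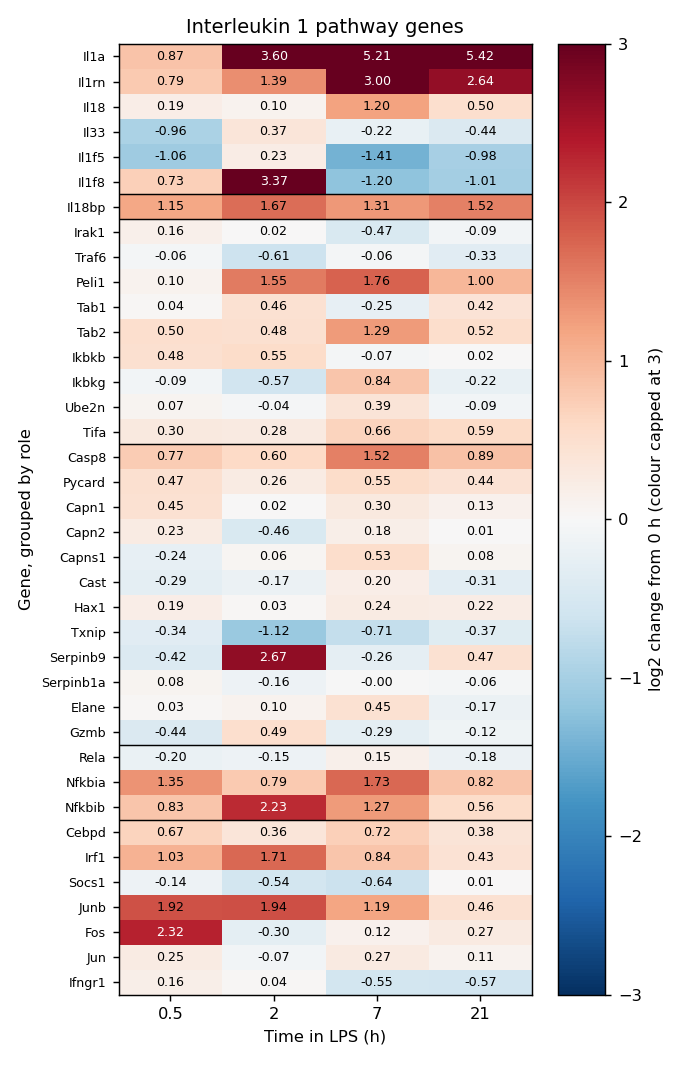
Log2 change from 0 h (number and colour, colour capped at 3 in either direction) at 0.5, 2, 7 and 21 h of LPS (columns) for Il1a, Il1rn, Il18 and the 35 other measured genes of the interleukin 1 pathway (rows, with lines between ligands, binding protein, signalling, processing, NF-kappaB and regulator genes). Il1a, Il1rn and Il18bp are at or above 1.31 on both late arrays, and Fos and Junb are high at 0.5 h.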

How the data were processed

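The authors deposited 1 log ratio per probe and array, of macrophage RNA and whole-embryo RNA labelled through amino-allyl cDNA, per the labels. Their normalization, the log base, the direction of the ratio and the dye of each channel are not given in the sources used here. The deposited values were read as log10, multiplied by 3.32 to log2 and centred on the median of each array over 18296 probes with a value on all 5. Probes with 1 symbol in the platform annotation of 2008 (14759, with 14628 updated by Entrez identifier to GRCm38.p6; 170 carried several symbols and 4899 were not listed) were averaged per gene. Changes are differences from 0 h, and 2-fold is a rule of size. The genes and lists were chosen with earlier results of these data known. Every measured list gene at least 2-fold from 0 h at any time was named, with the 5 nearest genes of each member. Any other measured list gene could be named. Cxcl10 and Cfb as the genes ranked next to Il1a were named after their values were seen. Upstream sequences are from RefSeq (GRCm38.p6), with 5 windows for the 3 genes. The scripts (Python 3.11.15, pandas 2.3.3) were tested on simulated arrays. Depth is not defined for arrays.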

Additional observations from a re-analysis of the deposited data

How the results depend on the processing

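The changes of Il1a and Il1rn at 2, 7 and 21 h and of Il18 at 7 h stayed above 0 under every alternative that gave a value. An alternative was taken to move a change where it shifted it by more than the SD over probes, and to move a count where it differed by over 1.5 times. Dropping the filter on missing values and taking the median over probes moved none of these results. The members' changes could not move there, because each member has 1 probe with a value on every array. Only the pathway counts were open to change. No centring shifted the median of all genes to 0.03, 0.10, -0.22 and -0.12 in order of time. It shifted no change of a member by more than the SD, though Il18 at 7 h fell below 2-fold (0.98). The pathway genes at least 2-fold lower became 2 of 35 at 0.5 h and 2 at 21 h, with 1.17% and 2.57% of all genes. Quantile normalization gave Il1a 2.08, 6.67 and 7.56 at 2, 7 and 21 h and Il1rn 4.14 and 3.68 at 7 and 21 h, with Il1rn at 0.96, below 2-fold, at 2 h. Under it 1 of 35 pathway genes passed 2-fold upwards and 2 downwards at 0.5 h, and 2 and 2 at 2 h. At 7 h 4 passed downwards, and at 21 h 3 upwards and 2 downwards. Of all genes, 2.78% passed upwards and 3.45% downwards at 0.5 h, and 4.98% and 4.57% at 2 h. At 7 h 5.97% passed downwards, and at 21 h 3.75% upwards and 4.53% downwards. Centring within runs gave 3 upwards and 2 downwards at 0.5 h, with 4.43% and 1.07% of all genes. At 21 h it gave 3 upwards, with 2.83% of all genes. The 0.5 h baseline gave Il1a 4.34 and 4.56 and Il1rn 2.21 and 1.85 at 7 and 21 h. With it 1 pathway gene passed upwards at 7 h, and 0 upwards and 3 downwards at 21 h. Of all genes 2.72% passed upwards at 7 h, and 2.26% upwards and 7.26% downwards at 21 h. Il18 at 2 h was -0.09 on this baseline. Read as log2, Il1a stood at 1.08, 1.57 and 1.63 and Il1rn at 0.42, 0.90 and 0.79 at 2, 7 and 21 h, and Il18 at 0.36 at 7 h. Then 1 pathway gene was at least 2-fold higher at 2 h, 0 at 0.5, 7 and 21 h, and 0 lower at any time, since each change is smaller by construction. Without the affected runs Il1a and Il1rn had no probe left and Il18 kept its values. Of 26 pathway genes left, 2, 3, 3 and 0 passed 2-fold upwards in order of time and 0 downwards. Of all 5996 genes left, 1.28%, 4.22%, 4.52% and 2.55% passed upwards and 0.98%, 1.55%, 2.87% and 1.08% downwards. Fewer genes were counted there, and for the other settings the cause was not tested. No paired analysis was possible because each time is 1 array. A single probe per member, with no signal over background given, limits every value.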
